A study of Homo sapiens with 12 samples.

Results

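The lysyl oxidase family has 5 members, LOX, LOXL1, LOXL2, LOXL3 and LOXL4, which were taken by gene name from a count table of 35741 genes in U87 cells. U87 is an established human glioblastoma line, and every library came from it. The groups were PNA-10b (sgPNA-10b at 150 nM), PNA-21 (sgPNA-21 at 150 nM), PNA-10b+21 (150 nM of each) and untreated control cells, with 3 libraries in each of the 4 groups. A sgPNA is a peptide nucleic acid, a DNA mimic with a peptide-like backbone, here directed at the seed of miR-10b or miR-21 to reduce that microRNA, and it was delivered on a carrier named BNP for 72 h to cells plated at 50000 per well of 24-well plates. The labels give the treated groups a knockdown of the microRNA and the controls the wild-type state. Cells given the carrier alone or a PNA of another sequence were not analysed here, so the PNA and its carrier cannot be told apart in any comparison against control. The study describes the controls as untreated, and the labels do not state whether they received the carrier. The labels number the libraries of a group but do not say that they came from separate cultures, so the p-values measure the spread between these libraries, which may be technical.

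Lysyl oxidases are secreted, copper-dependent amine oxidases that build a lysine-derived quinone cofactor from their own chain. They oxidise lysine and hydroxylysine side chains of collagen and elastin to aldehydes, which then condense into the covalent crosslinks that make fibres insoluble and stiff. LOX and LOXL1 are made with a propeptide that is cut off outside the cell, whereas LOXL2, LOXL3 and LOXL4 carry scavenger receptor cysteine-rich domains in front of the catalytic domain. LOX and LOXL2 are known targets of the hypoxia-inducible factors, and the family has been linked to matrix stiffening and invasion in glioblastoma and other tumours.

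Total counts per library were 12846676 to 18305820, and 15715 genes, all 5 members included, passed a filter on low counts. Of the markers of U87 and mesenchymal glioma, VIM and CD44 were at 1842 and 1454 CPM (counts scaled to library size) in control cells, whereas the astrocyte marker GFAP was at 4.09 CPM. Summed markers of endothelium, of epithelium, of oligodendrocytes and of microglia and leukocytes stayed at or below 6.54 CPM in every library. The 4 neuron markers summed to 81.5 to 88.7 CPM in PNA-10b, 73.1 to 81.3 in PNA-21, 67.5 to 75.5 in PNA-10b+21 and 85.1 to 93.9 CPM in control libraries. Most of this was SNAP25, a synaptic membrane protein, at means of 77.4, 68.7, 63.6 and 83.5 CPM in the same order, whereas RBFOX3 stayed at or below a mean of 0.359 CPM. The part of these markers in the results was not tested. In bulk RNA, fewer cells expressing a gene and less of its RNA per cell cannot be told apart, and this holds for every change given here.

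The miR-21 sequence is shown because sgPNA-21 was directed at its seed. The mature strand is RefSeq sequence of GRCh38.p14, at chr17:59841273-59841294 (plus strand), with the seed (bases 2 to 8) in capitals.
hsa-miR-21-5p: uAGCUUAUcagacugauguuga
The match to the whole seed, ATAAGCT, was found in the longest annotated 3′ UTR of 0 of 5 members, and in 10.4% of 12237 tested genes with a 3′ UTR. The shorter match TAAGCT, to bases 2 to 7 of the microRNA, was found in 28.7% of these genes, 2 times in LOX, 1 time in LOXL2 and in none of the others. The LOX 3′ UTR has 3548 bases, set against a median of 1394. Its 2 matches start 1866 and 3217 bases into the UTR and are given with their surroundings, the match in capitals. The second is followed by an A, which can pair with the first base of the microRNA, so this match is longer than TAAGCT alone. Matches of this longer form were not counted, either for the members or over all genes.
LOX, first match: ttattgattctTAAGCTtgtattaaaaact
LOX, second match: catttatcctcTAAGCTaaaatggtgctga

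Per length of a gene's joined exons the members had the same order in all 4 groups, with LOXL2 first, then LOX, LOXL1 and LOXL3, and LOXL4 far behind. LOXL2 averaged 213 RPKM (CPM per kilobase of exon) in PNA-10b cells, 137 in PNA-21 cells, 133 in PNA-10b+21 cells and 231 in control cells. LOX averaged 153, 99.6 and 81.1 RPKM in PNA-10b, PNA-21 and PNA-10b+21 cells, and 159 RPKM in control cells. In PNA-10b+21 cells LOX and its neighbour in this order, LOXL1, overlapped, since the lowest LOX library (70.4 RPKM) lay under the highest LOXL1 library (71.4 RPKM). With the longest transcript as the length they changed places there, at 88.2 RPKM for LOX and 88.5 RPKM for LOXL1, and LOXL2 came to 214 RPKM. In control cells the first 4 members stood between percentile 95.4 (LOXL3) and percentile 99.6 (LOXL2) of all genes tested by RPKM, and LOXL4 stood at percentile 3.70. The summed level of the family was 483 ± 17.5 RPKM in PNA-10b cells, 332 ± 21.8 in PNA-21 cells, 312 ± 30.5 in PNA-10b+21 cells and 544 ± 14.2 in control cells (SD, n = 3 each), and no library of a treated group reached the control range. LOXL1 made up 15.1% of this sum in PNA-10b cells, 19.8% in PNA-21 cells, 21.8% in PNA-10b+21 cells and 17.9% in control cells. This mean share was below control with sgPNA-10b alone and above control in both groups that had sgPNA-21. PNA-21 replicate 2, at 17.4%, lay within the control range of 17.1% to 18.5%, and the share was not tested.

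**Figure D1:**
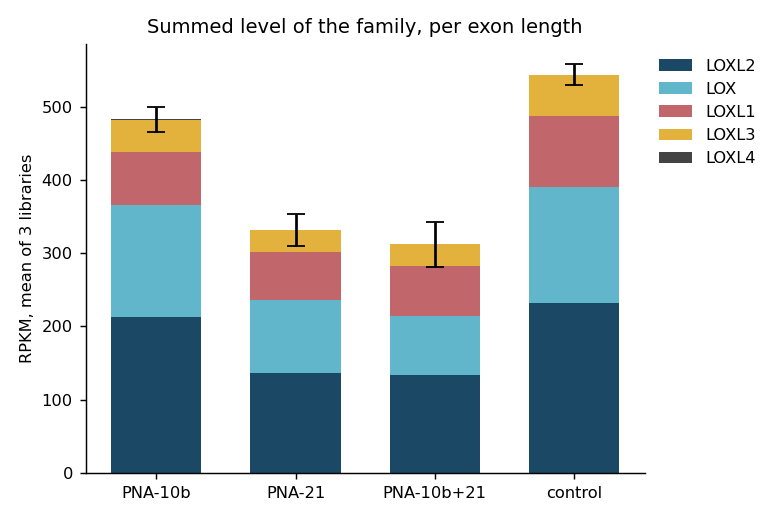
Summed level of the 5 members in each group, in RPKM (mean of 3 libraries, linear axis from 0), stacked by member with the SD of the sum as error bars. The bars stand at 483 RPKM in PNA-10b, 332 in PNA-21, 312 in PNA-10b+21 and 544 in control cells, and LOXL4 is too low to be seen.

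LOX, the founding member, which acts on fibrillar collagen and elastin precursors and has the shorter miR-21 match shown above, had 776.8, 837.9 and 929.1 CPM in the PNA-10b libraries and 511.5, 650.8 and 494.9 CPM in the PNA-21 libraries. It had 390.5, 427.0 and 532.1 CPM in the PNA-10b+21 libraries, and 868.2, 922.7 and 852.6 CPM in the control libraries. PNA-10b libraries overlapped the control libraries, whereas all 6 libraries with sgPNA-21 lay below every control library. LOX fell by 0.67 on the log2 scale in PNA-21 cells against control (SE 0.10, adjusted p = 3.6e-05, edgeR quasi-likelihood test with Benjamini-Hochberg adjustment over all genes tested, as for every adjusted p given here) and by 0.97 in PNA-10b+21 cells against control (SE 0.10, adjusted p = 4.59e-07). Against PNA-10b cells the fall in PNA-10b+21 cells was 0.91 (SE 0.10, adjusted p = 5.62e-06). In PNA-10b cells against control the difference was -0.06 ± 0.10 (log2, SE, adjusted p = 0.818). Within groups LOX spread more than LOXL1, LOXL2 or LOXL3 where sgPNA-21 was given, with a coefficient of variation of 15.5% in PNA-21 and 16.3% in PNA-10b+21 cells, set against 4.52% and 7.33% for LOXL1, 6.32% and 8.15% for LOXL2, and 2.24% and 7.60% for LOXL3.

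LOXL2, which acts on collagen IV of basement membranes and has also been described in the nucleus, was the most abundant member. It had 1244, 1193 and 1209 CPM in the PNA-10b libraries and 755.6, 839.1 and 751.7 CPM in the PNA-21 libraries. It had 697.1, 762.6 and 820.9 CPM in the PNA-10b+21 libraries, and 1349, 1253 and 1361 CPM in the control libraries. All libraries with sgPNA-21 lay below all libraries without it. LOXL2 fell by 0.76 in PNA-21 cells against control (SE 0.06, adjusted p = 2.6e-08), by 0.80 in PNA-10b+21 cells against control (SE 0.06, adjusted p = 9.05e-09) and by 0.68 in PNA-10b+21 cells against PNA-10b cells (SE 0.06, adjusted p = 4.87e-07). The PNA-10b libraries lay just under the control range, and the difference of -0.12 ± 0.06 (SE) did not pass the test (adjusted p = 0.264).

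LOXL3, a crosslinking enzyme needed for palate and spine development in mice, took 3 levels. It had 197.6, 181.2 and 192.8 CPM in the PNA-10b libraries and 128.7, 134.5 and 131.0 CPM in the PNA-21 libraries. It had 122.9, 128.7 and 142.3 CPM in the PNA-10b+21 libraries, and 246.6, 224.3 and 258.9 CPM in the control libraries. PNA-10b libraries lay between the others without overlap, and the PNA-21 and PNA-10b+21 libraries overlapped at the bottom. LOXL3 fell by 0.35 in PNA-10b cells (SE 0.06, adjusted p = 0.00111), by 0.89 in PNA-21 cells (SE 0.06, adjusted p = 4.64e-09) and by 0.89 in PNA-10b+21 cells (SE 0.06, adjusted p = 3.55e-09), each against control. It also fell in PNA-10b+21 cells against PNA-10b cells, by 0.54 (SE 0.06, adjusted p = 7.08e-06).

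LOXL1, which is directed to elastic fibres and is required for their upkeep in mice, had 259.0, 250.7 and 287.6 CPM in the PNA-10b libraries and 246.1, 225.8 and 242.2 CPM in the PNA-21 libraries. It had 226.0, 254.2 and 259.7 CPM in the PNA-10b+21 libraries, and 363.0, 328.1 and 372.9 CPM in the control libraries. The PNA-10b libraries lay above the PNA-21 libraries, the PNA-10b+21 libraries overlapped both, and all 9 treated libraries lay below every control library. LOXL1 fell by 0.42 in PNA-10b cells (SE 0.06, adjusted p = 0.000482), by 0.57 in PNA-21 cells (SE 0.06, adjusted p = 1.53e-06) and by 0.52 in PNA-10b+21 cells (SE 0.06, adjusted p = 4.22e-06), each against control. The difference in PNA-10b+21 cells against PNA-10b cells was -0.11 ± 0.06 (SE, adjusted p = 0.324).

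The promoter windows of LOX and LOXL1 are shown because LOXL1 fell in PNA-10b cells whereas LOX did not pass there. They are RefSeq sequence of GRCh38.p14 on the gene's own strand, from 250 bases before to 50 after the annotated start, at chr5:122078210-122078509 (minus strand) for LOX and at chr15:73926212-73926511 (plus strand) for LOXL1, with the 5-letter hypoxia response core ACGTG, read on both strands, in capitals.
LOX: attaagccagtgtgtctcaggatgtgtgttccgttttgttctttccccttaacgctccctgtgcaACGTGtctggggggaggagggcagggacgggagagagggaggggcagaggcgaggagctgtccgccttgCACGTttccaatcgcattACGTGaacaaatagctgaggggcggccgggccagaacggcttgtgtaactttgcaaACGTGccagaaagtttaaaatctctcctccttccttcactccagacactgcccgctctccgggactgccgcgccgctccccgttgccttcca
LOXL1: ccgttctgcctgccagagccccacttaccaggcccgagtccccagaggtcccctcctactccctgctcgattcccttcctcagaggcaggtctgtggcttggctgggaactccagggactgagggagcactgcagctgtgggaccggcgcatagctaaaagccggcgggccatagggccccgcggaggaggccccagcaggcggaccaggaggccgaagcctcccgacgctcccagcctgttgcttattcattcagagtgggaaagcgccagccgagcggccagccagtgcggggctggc
The LOX window held 4 matches, and the LOXL1 window held none. Of all 35116 windows of this length 21.4% held at least 1 match and 0.843% held 4 or more. The other LOX windows, for starts further downstream, overlap and held the same 1 match, and neither LOXL3 window nor the LOXL4 window held any. The other form of the core, GCGTG, which 36.5% of all windows held, was found in neither window shown nor in the LOXL4 window. It was found at the same 1 site in the overlapping other LOX windows, and 1 time in 1 of the 2 LOXL3 windows. The LOXL2 promoter was not analysed here. LOXL3 thus had no ACGTG match, and 1 GCGTG match in 1 of its 2 windows. Its difference in PNA-21 cells against control was -0.89, where LOX had -0.67. Whether the matches bear on any of these changes was not tested. A match is a description of the sequence, and no binding was measured.

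LOXL4, another crosslinking enzyme of the family, was close to the limit of what these libraries can show. The libraries held 11, 9 and 11 LOXL4 counts in PNA-10b cells, 6, 4 and 6 in PNA-21 cells, 9, 11 and 7 in PNA-10b+21 cells, and 11, 12 and 8 in control cells. PNA-21 libraries lay below all others. The summed counts were 16 in PNA-21 cells (exact Poisson 95% interval 9.15 to 26.0) and 31 in control cells (21.1 to 44.0), intervals that overlap and cover counting error only. The fitted fall of 1.12 in PNA-21 cells against control (SE 0.38) had an adjusted p of 0.0308, but with no filter on low counts it was 0.104, with DESeq2 0.142, and it did not pass with any PNA-21 or control library left out (adjusted p 0.0550 to 0.0880). In PNA-10b+21 cells against control the difference was -0.29 ± 0.34 (SE, adjusted p = 0.603).

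**Figure D2:**
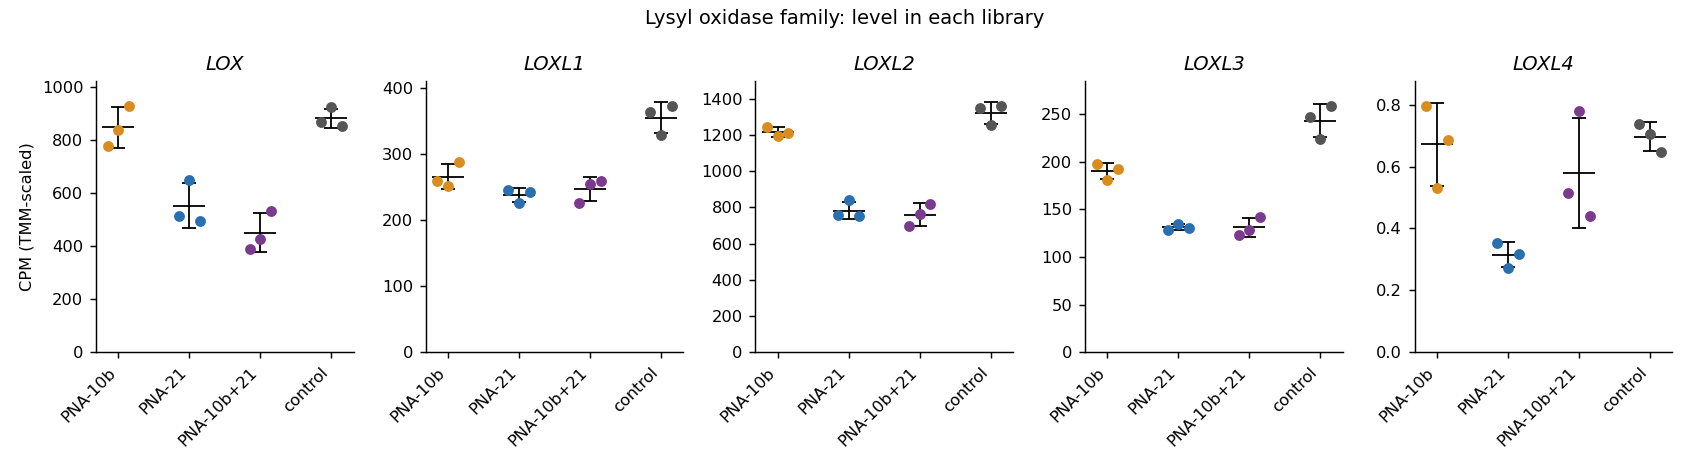
Level of each member in each of the 12 libraries, in TMM-scaled CPM on linear axes that start at 0 and differ between panels, with bars for the mean and SD of each group (n = 3). LOX in PNA-10b cells overlaps the control libraries, LOXL1 lies below control in all 3 treated groups, and LOXL3 in PNA-10b cells lies between the control cells and the cells with sgPNA-21.

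Counted over the family, 2 of 5 members (LOXL1 and LOXL3) fell in PNA-10b cells against control, where 3.74% of the 15715 genes tested were called lower. In PNA-21 cells against control 5 of 5 fell, LOXL4 with the limits given above, where 14.6% of all genes were called lower. In PNA-10b+21 cells against control 4 of 5 fell, where 13.4% of all genes were called lower, and LOXL4 was the exception. The median over the 5 members was that of LOXL2 in each case, at -0.12, -0.76 and -0.80, while the median over all genes tested was within 0.01 of 0. The 3 comparisons share the control libraries. In PNA-21 cells against PNA-10b cells LOX (-0.62), LOXL2 (-0.64) and LOXL3 (-0.54) were lower, which is 3 of 5 members where 3.88% of all genes were called lower.

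The effect of adding sgPNA-21 in cells that also had sgPNA-10b, which compares groups that both received the carrier, covered LOX, LOXL2 and LOXL3. These 3 of 5 members fell in PNA-10b+21 cells against PNA-10b cells, where 5.10% of all genes were called lower. PNA-10b+21 cells had 150 nM of each PNA, so their total PNA dose was higher than in PNA-10b or PNA-21 cells, at 150 nM. An effect of total dose was not tested. The comparison at equal dose is that of PNA-21 against PNA-10b cells, given above. Adding sgPNA-10b to sgPNA-21 was followed by no called change. In PNA-10b+21 cells against PNA-21 cells 0 of 5 members and 0 of 15715 genes passed (0.00%), with 1354 genes at an unadjusted p under 0.05, and DESeq2 also called 0 genes. LOX differed by -0.30 ± 0.10 (SE, adjusted p = 0.328) in that comparison, and the PNA-10b+21 and PNA-21 libraries overlapped. With no filter on low counts, 332 genes passed there and LOX was among them (adjusted p = 7.85e-06), and with the 2 groups fitted alone 48 genes passed.

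Whether the change with sgPNA-21 differed by the presence of sgPNA-10b was tested as an interaction, and 2 of 5 members passed with a positive value, where 1.48% of all genes did. LOXL1 had an interaction of 0.47 ± 0.09 (log2, SE, adjusted p = 0.0101), since its difference with sgPNA-21 was -0.57 without sgPNA-10b and -0.11 with it. LOXL3 had 0.35 ± 0.08 (SE, adjusted p = 0.0318), since its fall with sgPNA-21 was 0.89 without sgPNA-10b and 0.54 with it. For LOX (-0.24 ± 0.14, adjusted p = 0.378), LOXL2 (0.08 ± 0.09, adjusted p = 0.683) and LOXL4 (0.91 ± 0.51, adjusted p = 0.401) the interaction did not pass. If the controls had no carrier, which the labels do not state, an effect of the carrier common to the 3 treated groups would enter this interaction and cannot be told apart from it. The LOXL3 call was lost without either of control replicates 1 and 3, of PNA-10b replicates 2 and 3 or of PNA-10b+21 replicates 2 and 3, and without any of the PNA-21 replicates, with adjusted p up to 0.117. The LOXL1 call held without each library in turn.

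**Figure D3:**
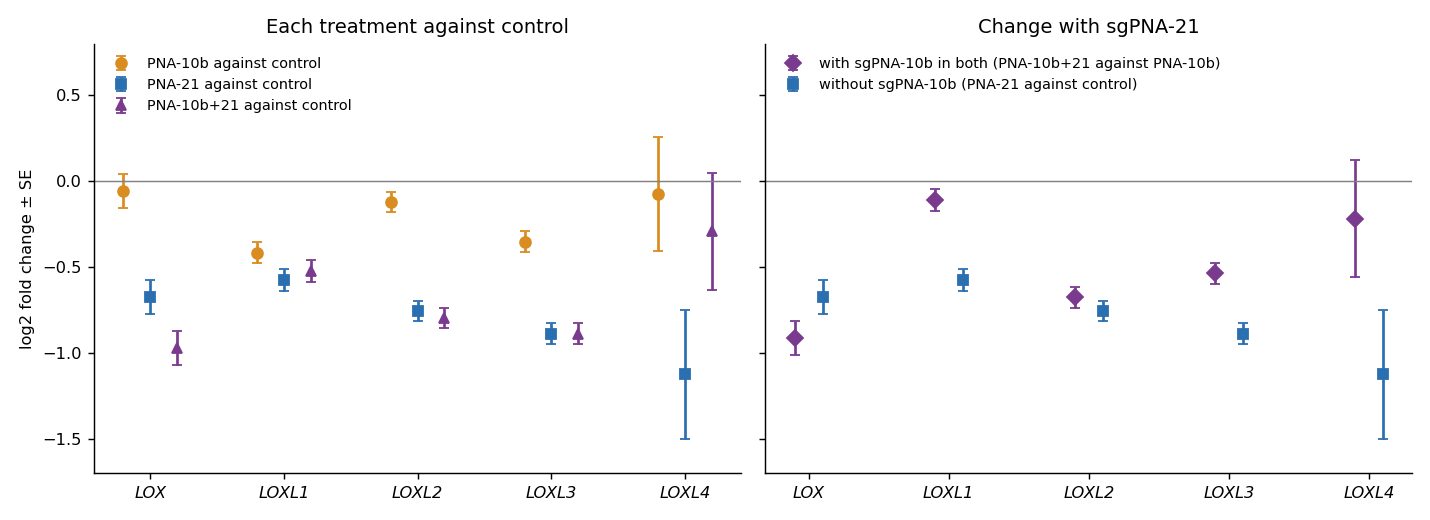
Log2 fold change of each member with its SE, on the left for each treatment against control and on the right for sgPNA-21 given to cells with sgPNA-10b (PNA-10b+21 against PNA-10b) and without it (PNA-21 against control). On the right LOXL2 lies at -0.68 with sgPNA-10b and at -0.76 without it, and LOXL1 at -0.11 with sgPNA-10b and at -0.57 without it.

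Averaged over the groups with and without the other PNA, LOX was lower with sgPNA-21 by 0.79 (SE 0.07), LOXL2 by 0.72 (SE 0.04), LOXL3 by 0.71 (SE 0.04) and LOXL1 by 0.34 (SE 0.05). That is 4 of 5 members, where 15.4% of all genes were called lower. In this average, and in that of sgPNA-10b, 1 of the 2 terms is against control, where the PNA and its carrier cannot be told apart. Between groups that both had a PNA, LOXL1 did not pass. It had -0.11 in PNA-10b+21 against PNA-10b cells (adjusted p = 0.324) and -0.16 in PNA-21 against PNA-10b cells (adjusted p = 0.144). The average effect of sgPNA-10b was called for 1 of 5 members, LOXL3 (-0.18 ± 0.04, adjusted p = 0.0469), where 0.719% of all genes were called lower. That call was lost with RLE size factors and without any of 10 of the 12 libraries, the exceptions being control replicate 2 and PNA-10b+21 replicate 3 (adjusted p 0.0521 to 0.193 where lost). LOXL1 had -0.18 ± 0.05 (SE, adjusted p = 0.0524). To ask whether members moved by different amounts, the log2 ratio of each pair was compared between the 6 libraries with and the 6 without sgPNA-21 by an exact two-sided permutation test within each sgPNA-10b state. Of 10 pairs, the ratio of LOXL1 to LOXL3 differed by 0.37 (exact permutation p = 0.005, the smallest the 400 arrangements allow, adjusted p = 0.05), that of LOXL1 to LOXL2 by 0.38 (p = 0.015, adjusted p = 0.075) and that of LOX to LOXL1 by -0.46 (p = 0.03, adjusted p = 0.1). No pair was under an adjusted p of 0.05, but over 10 pairs a single pair at the smallest possible p of 0.005 reaches only 0.05. The test could therefore not call a single pair, and it does not show that the members moved alike. The ratio of LOXL2 to LOXL3 differed by -0.01 (exact permutation p = 0.915).

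The genes whose pattern over the 12 libraries came closest to that of each member, by root mean square difference of log2 CPM centred on each gene's mean, were taken from 12401 genes and are given as a description. For LOX they were BNIP3 (0.08), a hypoxia-induced mitophagy receptor, the cytokine gene IL6 (0.09) and C4orf3 (0.09). BNIP3 had 271.2, 352.1 and 276.7 CPM in the PNA-21 libraries, 210.6, 258.5 and 299.5 CPM in the PNA-10b+21 libraries and 523.2, 518.3 and 516.6 CPM in the control libraries, so PNA-21 replicate 2 and PNA-10b+21 replicate 3 were the high ones of their groups for BNIP3, as for LOX. For LOXL2 the closest genes were CA12 (0.04), a carbonic anhydrase, SLC6A8 (0.05), the creatine transporter, and PGK1 (0.06), a glycolytic kinase. For LOXL3 they were SEMA5A (0.04), a semaphorin, NRN1 (0.05), which codes for neuritin, and ALDOC (0.05), a glycolytic aldolase. For LOXL1 they were GGCX (0.04), the gamma-glutamyl carboxylase, TSPAN9 (0.04), a tetraspanin, and COL6A1 (0.05), a chain of collagen VI, and these had differences of -0.41, -0.43 and -0.33 in PNA-10b cells against control. For LOXL4 they were AVIL (0.25), an actin-binding protein, AC137932.1 (0.27) and AC007938.3 (0.27), at larger distances than for the other members. Among the members, LOXL2 was the 23rd closest gene to LOX, and LOXL1 the 850th.

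Most of the tested fibrillar collagen chains, substrates of the family, fell in each of the 3 treated groups. Of 9 fibrillar collagen and collagen IV chains tested of 13 listed, 6 fell in PNA-10b cells, 6 in PNA-21 cells and 7 in PNA-10b+21 cells against control. The list medians were -0.47, -0.72 and -0.73. For this list and those below, 3.74%, 14.6% and 13.4% of all genes were called lower in these 3 comparisons. COL1A1, a chain of collagen I, averaged 1179 ± 77.9 CPM in PNA-10b cells, 935 ± 42.8 in PNA-21 cells, 942 ± 88.0 in PNA-10b+21 cells and 1707 ± 91.4 in control cells (SD, n = 3 each). COL3A1, the chain of collagen III, averaged 24.7 ± 4.0 CPM in PNA-10b cells, 26.9 ± 4.2 in PNA-21 cells, 26.2 ± 7.6 in PNA-10b+21 cells and 79.6 ± 19.0 in control cells. COL5A1, which starts collagen fibril assembly, fell by 0.50, 1.13 and 1.11 in the 3 comparisons. Of the 9 chains, 5 had a positive interaction (COL1A1, COL1A2, COL3A1, COL5A1 and COL5A2, from 0.48 to 1.64), and 3 did without PNA-10b replicate 2. COL4A2 was the only collagen IV chain of the list that was tested. It rose by 0.50 in PNA-21 cells, a call that was lost without control replicate 1 or PNA-21 replicate 2. In PNA-10b+21 cells it rose by 0.60. The shares of all genes called higher there were 15.2% and 13.6%. In PNA-10b+21 cells against PNA-10b cells 3 chains fell (COL5A1 by 0.62, COL1A1 by 0.32 and COL27A1 by 0.32), while 5 did with no filter or without PNA-10b+21 replicate 3, and 2 did when replicate 1 or 3 of PNA-10b cells, or replicate 1 or 2 of PNA-10b+21 cells, was left out.

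Elastic fibre genes fell in part. Of 11 tested of 14 listed, 3 fell in PNA-10b cells, 6 in PNA-21 cells and 5 in PNA-10b+21 cells, with list medians of -0.13, -0.21 and -0.26. FBN1, the main microfibril protein, had a difference of -0.06 in PNA-10b cells (adjusted p = 0.74), and fell by 0.65 in PNA-21 and by 0.68 in PNA-10b+21 cells. It was also the elastic fibre gene that fell in PNA-10b+21 cells against PNA-10b cells, by 0.62. MFAP4, a microfibril-associated protein, fell by 0.83, 0.83 and 0.79 in PNA-10b, PNA-21 and PNA-10b+21 cells. EFEMP2, the fibulin that tethers LOX to tropoelastin, fell by 0.23, 0.33 and 0.35. The elastin gene ELN did not pass in any of them (-0.18, -0.18 and -0.26), and LTBP4 was the gene that rose, by 0.21 in PNA-10b+21 cells, a call lost without control replicate 1 or 3 or PNA-10b+21 replicate 1.

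Of 7 tested genes for propeptide processing and docking, of 11 listed, 5 fell in PNA-10b cells and 6 in each of PNA-21 and PNA-10b+21 cells, with medians of -0.38, -0.64 and -0.49. BMP1, the protease that cuts the LOX propeptide and the procollagen C-propeptide, averaged 73.0 ± 5.9 CPM in PNA-10b cells, 58.5 ± 2.2 in PNA-21 cells, 60.2 ± 4.2 in PNA-10b+21 cells and 100.3 ± 9.9 in control cells. It fell by 0.46, 0.77 and 0.73 against control. FN1, which codes for fibronectin, a scaffold for LOX activation, fell by 0.44, 0.70 and 0.57, and PCOLCE, an enhancer of BMP1 on procollagen, by 0.38, 0.49 and 0.49. BMP1, FN1 and ADAMTS14 had a positive interaction (0.49, 0.56 and 0.69). That count of 3 was 0 without control replicate 1 or PNA-10b replicate 2, 1 without PNA-21 replicate 2 and 5 without control replicate 2.

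Most copper supply genes did not pass the test. Of 9 tested of 10 listed, 3 fell and 1 rose in each of PNA-21 and PNA-10b+21 cells. The shares of all genes called there were 14.6% and 13.4% lower, and 15.2% and 13.6% higher. ATP7A, the pump that loads copper onto secreted enzymes, fell by 0.53 in PNA-21 cells and by 0.61 in PNA-10b+21 cells, and its difference in PNA-10b cells was -0.23 (adjusted p = 0.0869). The copper chaperone for superoxide dismutase, CCS, fell by 0.44 and 0.46, and the metalloreductase gene STEAP3 by 0.44 in both. ATOX1, the chaperone that hands copper to ATP7A, was the gene that rose, by 0.16 and 0.18, and each of those calls was lost without control replicate 2 or 3, among others. The copper importer gene SLC31A1 had differences of -0.02, -0.03 and 0.02 in PNA-10b, PNA-21 and PNA-10b+21 cells, none of which passed.

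Enzymes that modify and fold collagen before it leaves the cell fell in large number. Of 17 tested of 18 listed, 11 fell in PNA-10b cells, 15 in PNA-21 cells and 14 in PNA-10b+21 cells, with medians of -0.23, -0.27 and -0.26. PLOD2, the lysyl hydroxylase of collagen telopeptides, which sets the kind of crosslink that lysyl oxidases form, averaged 1163 ± 53.4 CPM in PNA-10b cells, 820 ± 59.5 in PNA-21 cells, 739 ± 102 in PNA-10b+21 cells and 1446 ± 95.8 in control cells. It fell by 0.31, 0.82 and 0.97 against control. The prolyl hydroxylase subunit P4HA1 fell by 0.31, 0.75 and 0.91, and the prolyl 3-hydroxylase P3H2 by 0.39, 0.88 and 0.84. Of the 17, 6 fell in PNA-10b+21 cells against PNA-10b cells, among them PLOD2 by 0.66 and P4HA1 by 0.60. COLGALT2 was the gene that rose, by 0.61 in PNA-21 cells, a call that was lost with DESeq2, with no filter and without control replicate 1 or 2 or PNA-21 replicate 1 or 3.

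**Figure D4:**
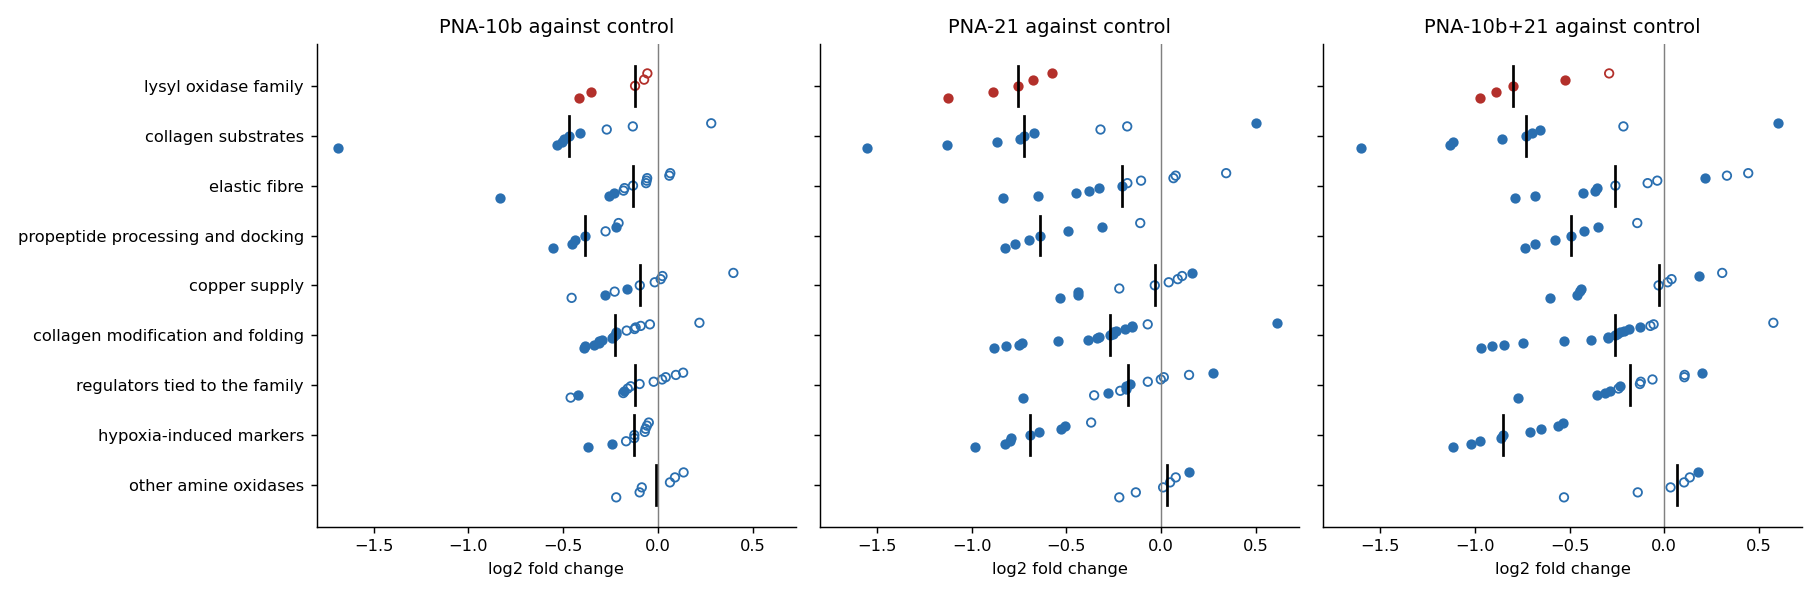
Log2 fold change of every tested gene of the family and of 8 lists around it, in PNA-10b, PNA-21 and PNA-10b+21 cells against control on a common axis. Filled points passed an adjusted p of 0.05, open points did not, and black bars mark list medians, which for the hypoxia-induced markers stand at -0.12, -0.69 and -0.85 from left to right.

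Hypoxia-induced markers were lower in the groups with sgPNA-21. Of 9 tested of 10 listed, 2 fell in PNA-10b cells, 8 in PNA-21 cells and 9 in PNA-10b+21 cells against control, and 7 fell in PNA-10b+21 cells against PNA-10b cells (medians -0.12, -0.69, -0.85 and -0.61). NDRG1, a stress-response gene often used to read out hypoxia, averaged 803 ± 15.5 CPM in PNA-10b cells, 476 ± 73.7 in PNA-21 cells, 429.5 ± 77.2 in PNA-10b+21 cells and 842 ± 30.3 in control cells (SD, n = 3 each). Its difference in PNA-10b cells was -0.07 (adjusted p = 0.757), and it fell by 0.82 in PNA-21 and by 0.97 in PNA-10b+21 cells. CA9, a carbonic anhydrase widely used as a hypoxia marker, had -0.12 in PNA-10b cells (adjusted p = 0.408) and fell by 0.98 in PNA-21 cells. NDRG1 and CA9 are thus not among the 2 markers that fell in PNA-10b cells, and ALDOC of the same list had -0.24 there. In the same comparison LOX, LOXL1, LOXL2 and LOXL3 had -0.06, -0.42, -0.12 and -0.35. Whether the members and these markers changed together was not tested. No marker of this list had a called interaction, and with no filter or without PNA-10b+21 replicate 1 there was 1.

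Of the 12 regulators tied to the family, 5 fell and 1 rose in each of PNA-21 and PNA-10b+21 cells, with medians of -0.18 in both. The shares of all genes called there were 14.6% and 13.4% lower, and 15.2% and 13.6% higher, so 1 rise among 12 is not above the share. TGFB2, a growth factor that induces matrix genes, fell by 0.42, 0.73 and 0.77 in PNA-10b, PNA-21 and PNA-10b+21 cells. HIF1A, the oxygen-regulated subunit of the hypoxia-inducible factor, fell by 0.28 in PNA-21 and by 0.31 in PNA-10b+21 cells, and EPAS1, its paralogue, by 0.19 and 0.23. ZEB1, a repressor active in the epithelial to mesenchymal transition, was the gene that rose, by 0.27 and 0.20, the second of which was lost without control replicate 1 or PNA-10b+21 replicate 1. Of 6 other amine oxidases tested of 9 listed, none fell. The histone demethylase KDM1A rose, by 0.15 in PNA-21 and by 0.18 in PNA-10b+21 cells, and 1 of 6 is near the share of all genes called higher. Its call in PNA-21 cells was lost without control replicate 1 or 2 or PNA-21 replicate 1.

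The counts of these lists in PNA-10b cells moved when single libraries were left out. Without control replicate 3 or PNA-10b replicate 2, the count of collagen modification genes was 7. Without control replicate 1 or PNA-10b replicate 2, that of elastic fibre genes was 1. Without control replicate 1 or 3, that of processing genes was 3. The hypoxia count was 0 with PNA-10b replicate 2 left out, and 1 with control replicate 1 or 3 left out. In PNA-10b cells 2 copper supply genes (CCS and STEAP3) and 2 regulators (TGFB1 and TGFB2) fell, and both counts were 0 or 1 with any control library or PNA-10b replicate 1 or 2 left out.

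All members lie on different chromosomes, at 5:122063195-122078360 for LOX (minus strand, ENSG00000113083), 15:73925989-73952137 for LOXL1 (plus, ENSG00000129038), 8:23297189-23425328 for LOXL2 (minus, ENSG00000134013), 2:74532414-74555690 for LOXL3 (minus, ENSG00000115318) and 10:98247690-98268250 for LOXL4 (minus, ENSG00000138131), in hg38 with GENCODE 29 annotation. Each overlaps another gene. The sources used here do not state how strand was handled in counting, and reads in shared exon bases cannot be assigned with certainty. SRFBP1 shares 138 exon bases with LOX on the opposite strand, and its differences were 0.02, 0.02 and 0.18 in PNA-10b, PNA-21 and PNA-10b+21 cells, none of which passed. LOXL1-AS1, an antisense RNA that shares 335 exon bases with LOXL1, fell by 0.21 in PNA-21 cells (adjusted p = 0.0344) and by 0.22 in PNA-10b+21 cells (adjusted p = 0.0266), and its difference in PNA-10b cells was -0.11. AC090197.1, which shares 178 exon bases with LOXL2 on the opposite strand, fell by 0.66 and 0.51 in PNA-21 and PNA-10b+21 cells, and ENTPD4, with 120 shared exon bases on the same strand, had differences within 0.04 of 0. HTRA2, which shares 625 exon bases with LOXL3 on the opposite strand, rose by 0.26 in PNA-21 cells (adjusted p = 0.0308), the direction opposite to LOXL3. DOK1, which shares 216 exon bases with LOXL3 on the opposite strand, had -0.12, -0.10 and -0.09 in PNA-10b, PNA-21 and PNA-10b+21 cells, none of which passed. Each overlapping gene that was tested had a smaller log2 change than its member in PNA-21 and PNA-10b+21 cells. AL139241.1, which overlaps LOXL4 on the opposite strand, had 1 count in all libraries and was not tested. Of the genes within 5 kb that overlap no member, AUP1, near LOXL3, rose by 0.16 in PNA-21 and by 0.18 in PNA-10b+21 cells, and R3HCC1L, near LOXL4, fell by 0.21 in PNA-21 cells (adjusted p = 0.0400). R3HCC1, near LOXL2, did not pass in any comparison against control, and M1AP, near LOXL3, was not tested.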

How the data were processed

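RNA of 12 U87 samples was sequenced after TruSeq Stranded mRNA preparation, per the labels' protocols. The authors deposited 1 table of raw read counts per gene for all libraries. The submitters' processing notes name HISAT2 2.1.0, SAMtools 1.7, HTSeq 0.11.0 and hg38. Neither strand setting nor read filters are stated there.

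Counts were tested with edgeR 4.0.16 in R 4.3.3 (quasi-likelihood test, TMM scaling, minimum count of 10 in filterByExpr), with all 12 libraries and a mean per group in 1 fit. Benjamini-Hochberg adjustment ran over the 15715 genes tested, with a threshold of 0.05 in each of 9 comparisons. The SE is the fold change divided by the root of its F value. CPM are TMM-scaled, and RPKM divide them by the union of a gene's exons. DESeq2 1.42.0, other scalings, no filter, a replicate block and leaving out each library were alternatives. The test was run on simulated counts beforehand. Replicates of a group differed by more than counting noise, so none was a second sequencing of another library of its group. This does not show that they came from separate cultures. The genes named are the members, up to 4 genes per list by smallest p, the 3 genes closest to each member, and genes that overlap a member or lie within 5 kb, with a few added after their values were seen. The members and lists were chosen with earlier results of these data known.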

Additional observations from a re-analysis of the deposited data

Results flagged for a closer look

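The interaction term of edgeR's fit was called for LOXL1 and LOXL3, whose changes with sgPNA-21 differed in size with and without sgPNA-10b. The change in LOXL1 in PNA-10b+21 cells against PNA-10b cells minus that in PNA-21 cells against control was 0.47 on the log2 scale. For LOXL3 the same difference was 0.35, and its call was lost in 9 of 12 fits with a single library left out. The term includes the control cells. If these had no carrier, an effect of the carrier common to the treated groups cannot be told apart from it.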

How the results depend on the processing

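Of the results for single members and pairs, the falls of LOX, LOXL1, LOXL2 and LOXL3 in PNA-21 and PNA-10b+21 cells against control, those of LOX, LOXL2 and LOXL3 in PNA-10b+21 against PNA-10b cells, those of LOXL1 and LOXL3 in PNA-10b cells and the LOXL1 interaction kept direction and call under every alternative. LOXL4 in PNA-21 cells (-1.11 with no filter, -1.14 with DESeq2, -1.21 to -1.04 without single libraries) lost its call, and its counts of 4 to 12 per library limit it. With no filter LOX passed in PNA-10b+21 against PNA-21 cells (-0.30), in the interaction (-0.26) and for average sgPNA-10b (-0.17), as did LOXL1 there (-0.18). That average for LOXL1 also passed with DESeq2 (-0.18), and LOXL3 lost it with RLE size factors (-0.18). The cause was not tested. Without single libraries the average for sgPNA-10b ran from -0.24 to -0.11 in LOX, -0.21 to -0.15 in LOXL1 and -0.21 to -0.15 in LOXL3, that of sgPNA-21 in LOXL4 from -0.79 to -0.60 and the LOXL3 interaction from 0.29 to 0.41. For average sgPNA-10b these settings ended the LOXL3 call in 10 of 12, and made a call for LOXL1 in 4 (adjusted p 0.0204 to 0.0444) and for LOX in 1 (0.0425). For average sgPNA-21 LOXL4 was called in 2 (0.0353 and 0.0457), and the LOXL3 interaction lost its call in 9. Uncalled values crossed 0: LOX (-0.12 to 0.0034) and LOXL4 (-0.20 to 0.079) in PNA-10b cells, and LOXL2 (-0.10 to 0.019) and LOXL3 (-0.063 to 0.046) in PNA-10b+21 against PNA-21 cells, and the pair differences LOX minus LOXL4 (-0.34 to 0.059), LOXL2 minus LOXL3 (-0.038 to 0.026), LOXL2 minus LOXL4 (-0.21 to 0.10) and LOXL3 minus LOXL4 (-0.18 to 0.11).

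Whether replicate numbers pair the libraries is not stated in the labels and was not settled here. Deviations of same-numbered libraries from their group means correlated at -0.346 to 0.525, over 0.1 in 8 of 18 pairs. Those of differently numbered libraries correlated at -0.578 to 0.625, over 0.1 in 11 of 36 pairs. With a replicate block, LOXL1 passed for average sgPNA-10b (-0.18), and the count of genes called there was 358, against 170 without. Permuted within replicate number, the pair differences LOXL1 minus LOXL2 (0.38) and LOXL1 minus LOXL3 (0.37) passed (adjusted p = 0.0463 for both, exact permutation test). The number of genes called was 0 in PNA-10b+21 against PNA-21 cells without each library in turn, 332 with no filter and 48 with those groups alone. In the interaction it was 491, with 92 to 1028 without single libraries and 1074 with no filter, and for average sgPNA-10b 20 to 386 and 545.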
